A study of Mus musculus with 16 samples.

Results

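The Hox genes encode homeodomain transcription factors that sit in 4 clusters, Hoxa, Hoxb, Hoxc and Hoxd, on mouse chromosomes 6, 11, 15 and 2. Within a cluster the genes are numbered by paralogue group, and genes with low numbers are expressed toward the head while genes with high numbers are expressed toward the tail. Skin keeps this order in the adult: dermal fibroblasts of different body regions carry different sets of active Hox genes. Hox proteins bind DNA together with TALE homeodomain cofactors of the Pbx, Meis and Pknox families, and Polycomb and trithorax complexes hold their genes silent or active.

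All Hox genes with a number in their symbol were taken from the array table, except Hoxc13. These were 47 of the 45101 probe sets, for 32 of the 39 Hox genes in the mouse reference table. The other Hox genes were not analysed here.

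The samples were dorsal skin biopsies of iK5-TERT mice, 1 Affymetrix array each and 16 in all. In these mice a keratin-5 promoter drives the tetracycline transactivator (K5tTA) in basal keratinocytes, which switches on a tetop-TERT transgene unless doxycycline is present. All mice drank doxycycline (5 µg/ml) until day 10 to 21, then expressed TERT, and were biopsied at day 60, when the study's methods place the follicles in the growth phase (anagen). TERT-on mice were injected with PBS and TERT-off mice with doxycycline (8 µg/g body weight), and biopsies of 3 cm² were taken at 0, 6, 12 and 24 h, without the subcutaneous fat. Each of the 8 groups of cohort and time held 2 arrays, numbered replicate 1 and 2. Same-numbered arrays within a cohort were treated as serial biopsies of one animal, giving 4 mice. Following the study's methods, the biopsies of 0 h were taken as obtained without an effect of the injection. The place on the back from which each biopsy came is not given in the sources used here.

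Intensities are on the linear scale of the table, whose median was 34.4. Array medians lay between 32.9 and 36.3. One array, that of the first TERT-on mouse at 0 h, had a 5′ to 3′ Gapdh signal ratio of 0.0599 where the others had 0.977 to 1.12, a ratio used to judge RNA integrity, and the main values that use it are also given without it. Tert itself measured 185 to 357 on the 4 arrays of 0 h, 22.6 to 64.6 on the later TERT-on arrays and 8.32 to 16.1 on the later TERT-off arrays. Tert was thus lower after 0 h in the TERT-on mice too, which goes against a constant TERT-on state, and TERT-on and TERT-off are used here as the labels' names of the cohorts. One mouse, TERT-off replicate 1, stood apart from the others at 0 h: its hair shaft keratins summed to 357 (7663 to 27627 in the others) and its inner root sheath markers to 1809 (20210 to 27527), so that these anagen markers were low in it before injection. Differences are log2 differences with their standard error from a limma fit on all 16 arrays, with the Benjamini-Hochberg adjustment over 25563 probe sets, and a gene was called at an adjusted p under 0.05. Where a gene had several probe sets, the one with the highest mean stood for it.

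The Hox code of the dorsal skin was read by counting, for each gene, the arrays above a threshold. Of the 32 genes, 11 were above the median of the table on all 16 arrays: Hoxa3, Hoxa5, Hoxb2, Hoxb3, Hoxb4, Hoxb6, Hoxc5, Hoxc6, Hoxc8, Hoxd8 and Hoxd9. They belonged to groups 1 to 3 in 3 of 7 genes, to groups 4 to 8 in 7 of 12 and to groups 9 and 10 in 1 of 7. None of the 6 genes of groups 11 to 13 was above the median on any array. These genes pattern the end of the trunk, the distal limb and the genital region.

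In the middle of the clusters, Hoxc8, which patterns thoracic vertebrae, ran from 200.2 to 512 with a median of 329. Hoxa5, at the border of neck and thorax, ran from 175 to 360.3 around a median of 291. Hoxd8, active in the lower trunk, ran from 151 to 581, Hoxb6 from 107 to 272 and Hoxc6 from 69.5 to 161. Each probe set has its own brightness, so that these levels give no order among the genes.

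Other genes passed the median on few arrays or none. At the head end, Hoxa2, which sets the identity of the second pharyngeal arch, ran from 10.6 to 35.1 and passed the median on 2 arrays. Hoxb1 (4.14 to 15.5) and Hoxd1 (1.69 to 9.60) passed it on none. At the tail end, Hoxa11 (11.6 to 31.6), Hoxa13 (2.30 to 16.03), Hoxb13 (1.66 to 7.47), Hoxd11 (4.43 to 14.8), Hoxd12 (1.88 to 11.4) and Hoxd13 (its brighter probe set 2.07 to 14.5) passed it on none. Hoxa4, Hoxb7, Hoxd3 and Hoxd10 were also below it throughout. A probe set below the median can be a weak probe as well as a gene with little RNA, and the 20th percentile of the table (7.71) as the threshold put 20 genes above it on all arrays. These were 4 of 7 genes in groups 1 to 3, 10 of 12 in groups 4 to 8, 5 of 7 in groups 9 and 10 and 1 of 6 in groups 11 to 13, so that the split by group depends on the threshold.

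**Figure D1:**
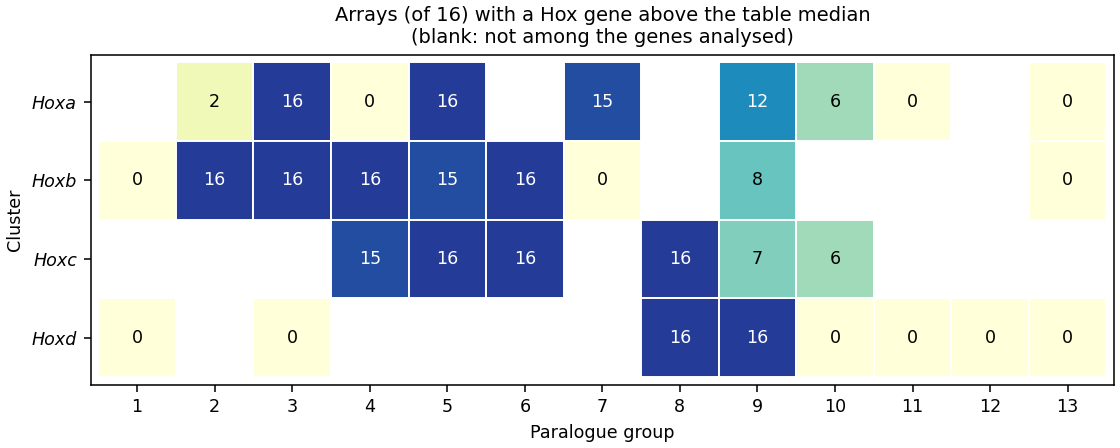
Each square is 1 Hox gene, placed by cluster (vertical axis) and paralogue group (horizontal axis), and its number and colour give the arrays, of 16, on which its best probe set was above the table median of 34.4. Groups 11 to 13 stand at 0, and the genes with 6 to 12 arrays lie in groups 9 and 10. Hoxa2 stands at 2, and Hoxa7, Hoxb5 and Hoxc4 stand at 15.

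Most genes that passed the median on part of the arrays belonged to groups 9 and 10. Hoxa10 and Hoxc10, both active in the lumbar and sacral trunk, were each above the median on 6 arrays, of which 5 (83.3% of each set) were the same. Hoxa9 was above it on 12 of the 15 arrays with a value, Hoxb9 on 8 and Hoxc9 on 7.

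Filtering for probe sets above the median on at least 2 arrays left 20 Hox genes for testing, with 28 probe sets: 6 of 9 Hoxa, 6 of 9 Hoxb, 6 of 6 Hoxc and 2 of 8 Hoxd genes. The other 12 were above it on no array and were not tested.

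The first comparison asked which Hox genes differed between doxycycline-injected and PBS-injected mice over 6 to 24 h. Of the 20 genes 5 were called (25%), against 29.5% of all 12580 genes tested. Hoxa3, Hoxc4 and Hoxa10 were higher in TERT-off skin, and Hoxb2 and Hoxb3 were lower; 16.9% of all genes were called higher and 12.6% lower. The share called among the Hox genes was thus near that of all genes. Without adjustment, 11 of the 20 had a p under 0.05 (55%), as did 44.0% of all genes. The median difference of the Hox genes was 0.25, against 0.04 over all genes. When arrays were centred on their medians, the split over all genes turned from 2124 higher and 1589 lower to 1759 higher and 2121 lower, and the Hox genes then had 3 of each with Hoxb6 added.

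Hoxa10 gave the largest difference. In TERT-off skin at 6, 12 and 24 h its intensity was 46.6, 58.4 and 12.6 in replicate 1 and 28.1, 61.8 and 54.1 in replicate 2. In TERT-on skin it was 8.28, 16.04 and 51.3 in replicate 1 and 13.2, 4.08 and 38.6 in replicate 2. The cohorts were apart at 6 and 12 h and overlapped at 24 h, where both TERT-on mice were high and one TERT-off mouse was low. The mean difference was 1.15 ± 0.38 (adjusted p = 0.0421), a 2.22-fold difference; 1 TERT-on value lay below the floor of 7.71 and was raised to it.

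Hoxc4, a gene of cervical vertebrae and oesophageal muscle, ran from 61.8 to 97.7 with a median of 85.1 on the 6 TERT-off arrays. It ran from 28.4 to 82.5 with a median of 44.9 on the 6 TERT-on arrays. The cohorts overlapped through the TERT-on replicate 1 array of 24 h. The difference was 0.80 ± 0.24 (adjusted p = 0.0322). At 0 h it had been 76.4 and 120 in TERT-on and 157 and 88.1 in TERT-off skin.

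Hoxa3, which is needed for the thymus and parathyroid, ran from 64.6 to 101.1 (median 90.4) in TERT-off and from 36.8 to 85.2 (median 50.5) in TERT-on skin, a difference of 0.65 ± 0.18 (adjusted p = 0.024). At 0 h the order was the opposite, with 51.5 and 69.7 in TERT-off and 85.9 and 101.5 in TERT-on skin (-0.64 ± 0.29, adjusted p = 0.613; -0.52 ± 0.37 without the array of low Gapdh ratio). Its other well-measured probe set did not pass (0.12 ± 0.11, adjusted p = 0.451), so that the probe sets of Hoxa3 disagreed. At 6 to 24 h the cohorts overlapped through 2 TERT-on arrays, that of replicate 2 at 6 h and that of replicate 1 at 24 h.

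Hoxb2 and Hoxb3, which pattern the hindbrain in the embryo, were called lower. Hoxb2 ran from 149 to 270.1 (median 181) in TERT-off and from 202 to 319 (median 281) in TERT-on skin, a difference of -0.56 ± 0.14 (adjusted p = 0.0159). The ranges overlapped through TERT-off replicate 2 at 6 h. At 0 h the difference was -0.53 ± 0.23 (adjusted p = 0.592; -0.60 ± 0.29 without the array of low Gapdh ratio), and the cohorts' changes from that time were -0.02 ± 0.25 apart (0.04 ± 0.31 without it). Hoxb3 ran from 142 to 329.6 (median 169) in TERT-off and from 222 to 305 (median 287) in TERT-on skin, with a difference of -0.55 ± 0.17 (adjusted p = 0.0357). All TERT-off arrays of Hoxb3 but that of replicate 2 at 6 h were below the lowest TERT-on array, and its other probe set gave 0.06 ± 0.19.

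**Figure D2:**
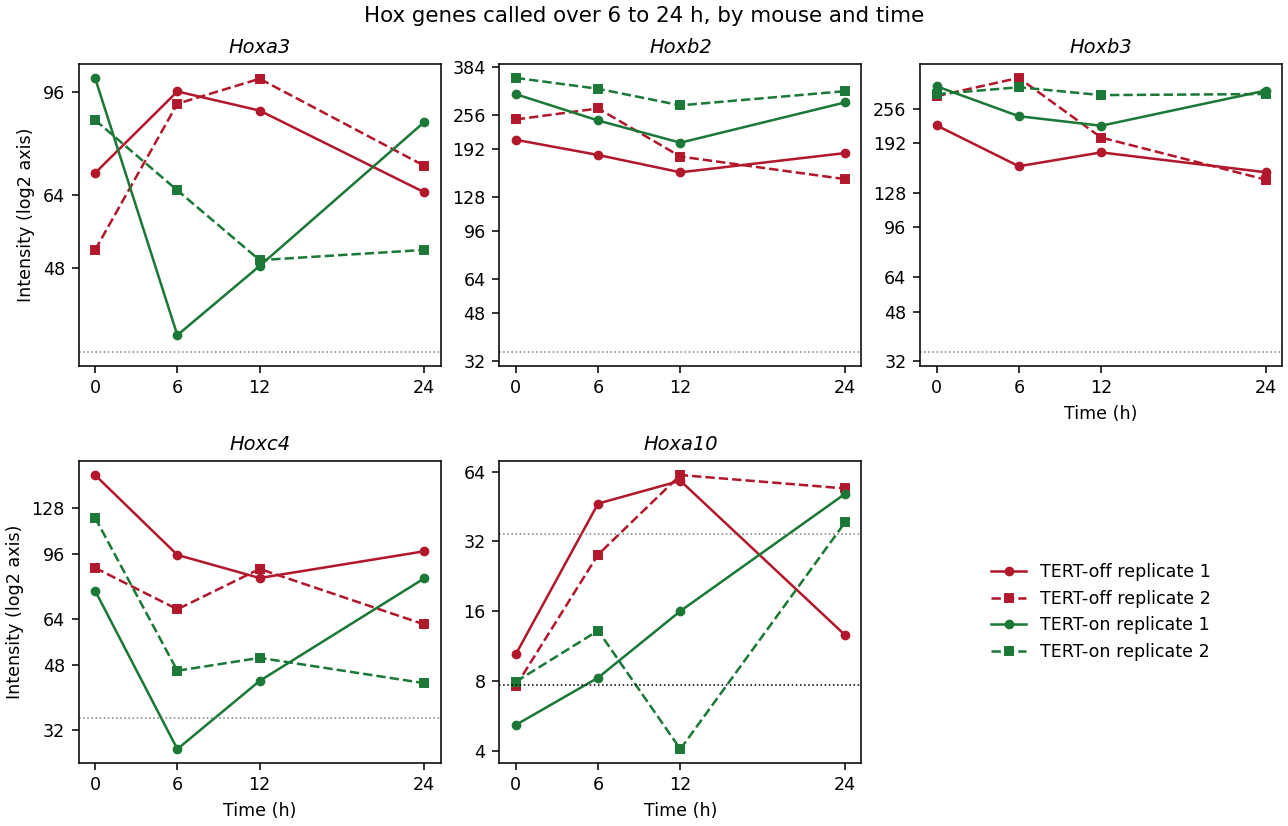
Intensity on a log2 axis against time in h for the 5 Hox genes called over 6 to 24 h, with 1 line per mouse; the grey dotted line is the table median of 34.4 and the black one the floor of 7.71. TERT-off (red) lies above TERT-on (green) at 6 and 12 h for Hoxa3, Hoxc4 and Hoxa10, and the Hoxb2 lines are apart at 0 h as well.

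None of the 20 genes had its 6 TERT-off arrays apart from its 6 TERT-on arrays, which 6.61% of all genes had upward and 4.83% downward. The called Hox genes changed when a mouse was left out, but such fits leave a lone array in some groups. Over all genes, calls also became far fewer when either TERT-on mouse was dropped. A loss of Hox calls there thus does not set these genes apart. The median Hox difference of 0.25 became 0.15 or 0.32 when the first or the second TERT-on mouse was dropped. It became 0.29 or 0.10 when the first or the second TERT-off mouse was dropped. The last value is without Hoxa9, for which the remaining TERT-off mouse had no value at 12 h.

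Grouped by cluster, the Hoxb and Hoxc genes had opposite signs. All 6 tested Hoxb genes had a negative difference, from -0.56 to -0.02, and all 6 tested Hoxc genes a positive one, from 0.16 to 1.09. Of the Hoxa genes 5 of 6 were positive, with Hoxa7 at -0.12, and of the Hoxd genes Hoxd9 was at 0.55 and Hoxd8 at -0.26. Over all genes 54.4% were positive. The second probe sets of Hoxb3 (0.06) and Hoxc5 (-0.22) had the sign opposite to that of their gene's first. Part of the split was present before injection: at 0 h 5 of 6 Hoxb genes were negative (median -0.40), and 4 of 6 Hoxc genes were positive (median 0.25), with Hoxc10 at the floor on all arrays. Without the array of low Gapdh ratio 5 Hoxb genes were again negative, and the Hoxc genes were 3 positive and 3 negative. By position, 2 of 4 genes of groups 1 to 3, 5 of 10 of groups 4 to 8 (median 0.02) and 5 of 6 of groups 9 and 10 (median 0.77) were positive. Genes of 1 cluster share their chromosome region and are not independent, and 3 of the 12 Hoxb and Hoxc genes were called. The Hoxb and Hoxc signs were the same under each scaling and floor tried, and without TERT-on replicate 2 they were 5 of 6 (Hoxb9 turned from -0.02 to 0.05) and 6 of 6.

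The largest differences that did not pass the test were in groups 9 and 10. Hoxc10 differed by 1.09 ± 0.43 (adjusted p = 0.0807), Hoxa9 by 0.91 ± 0.62 (adjusted p = 0.305), Hoxc9 by 0.63 ± 0.27 (adjusted p = 0.104) and Hoxd9 by 0.55 ± 0.27 (adjusted p = 0.151). For Hoxa9, a regulator of blood stem cells, the TERT-off array of replicate 1 at 12 h had no value, and the fit used the other 5.

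**Figure D3:**
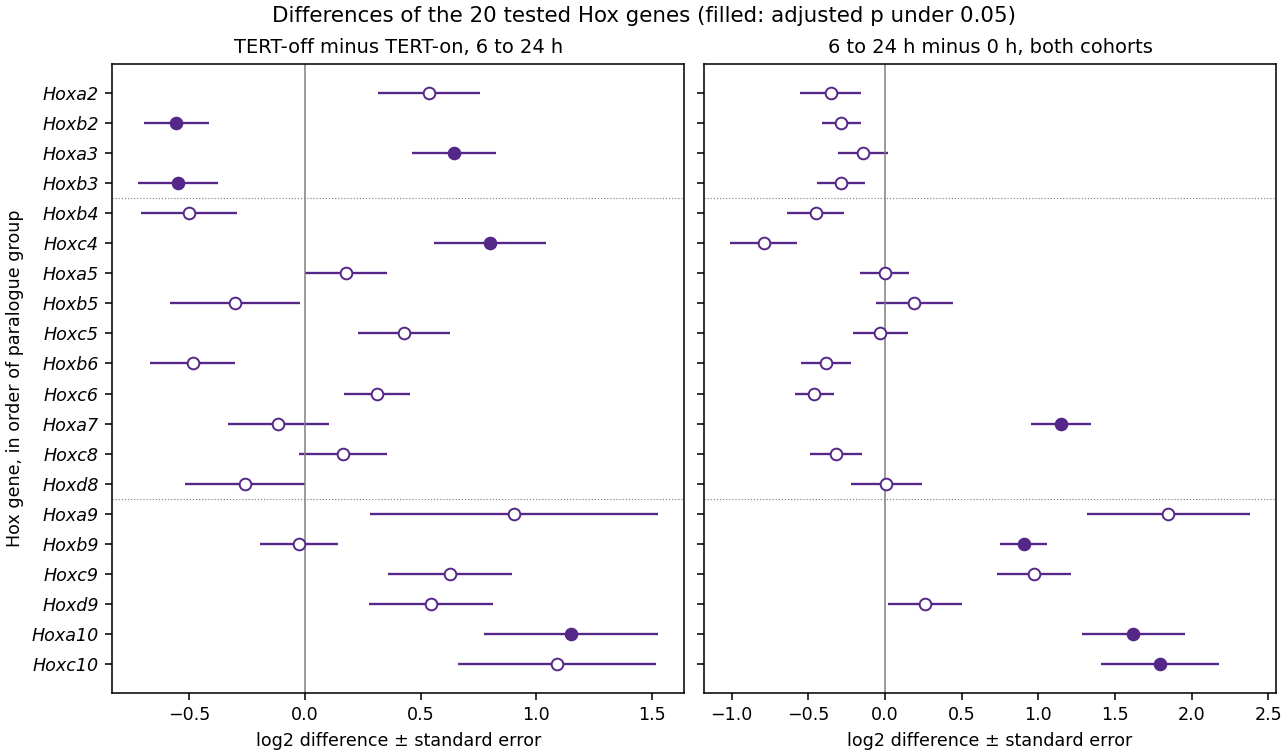
Log2 differences with standard errors (horizontal axis) for the 20 tested Hox genes in order of paralogue group (vertical axis), between cohorts on the left and from 0 h on the right, with filled points for called genes. On the right the genes of groups 9 and 10 and Hoxa7 lie above 0, and most of the others lie at or below it.

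At the single times no Hox gene was called by limma, with 2 arrays on each side. Of all genes 0.0397% were called before injection, 1.74% at 6 h, 2.56% at 12 h and 2.41% at 24 h. An unadjusted p under 0.05 was found for 2 of 20 Hox genes before injection (10%, against 7.94% of all genes), for 5 at 6 h (25%, against 23.5%), for 9 at 12 h (45%, against 30.0%) and for 6 at 24 h (30%, against 22.7%). All of those at 6 and 12 h were higher in TERT-off skin and all of those at 24 h lower. The median Hox difference went from -0.21 before injection (-0.33 without the array of low Gapdh ratio) to 0.30 at 6 h and 0.61 at 12 h, and was -0.56 at 24 h. In groups 9 and 10 all 6 genes had a positive difference at 12 h (median 1.65), and 5 of 6 a negative one at 24 h (median -0.67). Hoxa10 and Hoxc10 were 2.43 ± 0.61 and 2.59 ± 0.69 higher in TERT-off skin at 12 h (adjusted p = 0.0545 and 0.0637) and -0.77 ± 0.61 and -1.02 ± 0.69 at 24 h. Subtracting the 6 h difference from the 24 h one, a comparison added after the values were seen, gave a negative value for 18 of 20 genes. The median was -0.76, against -0.041 over all genes. Of the 20, 7 had an unadjusted p under 0.05 in limma (35%, against 10.4% of all genes). None was called, against 0.207% of all genes. The share of negative values over all genes was not taken, and genes of 1 cluster are not independent, so the 18 of 20 are a description.

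Within a cohort the change from 0 h to the mean of 6 to 24 h gave no called Hox gene either: 0.501% of all genes were called in TERT-off and 0.183% in TERT-on skin. An unadjusted p under 0.05 was found for 7 of 20 Hox genes in TERT-off (35%, against 17.8% of all genes) and for 9 in TERT-on skin (45%, against 19.7%). Without the array of low Gapdh ratio the latter were 3, against 10.1% of all genes. For the difference of these changes between the cohorts it was 2 of 20 (10%, against 14.4%), and 0.00795% of all genes were called. Since the genes of groups 9 and 10 were positive in both cohorts, the mean change over both was tested too, a comparison chosen after the values were seen.

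In this comparison 4 of 20 Hox genes rose from 0 h (20%) and none fell, where 1.22% of all genes were called higher and 1.21% lower, 2.43% in all. The count is a description: the comparison was picked because genes of groups 9 and 10 had been seen to be positive, and Hoxb9, Hoxa10 and Hoxc10 passed the filter on low values only through the later arrays. They were Hoxa7, which acts in the thoracic trunk, Hoxb9, Hoxa10 and Hoxc10. Of the 6 genes of groups 9 and 10, all were positive, which is what prompted the comparison, and Hoxd9 turned to -0.03 without TERT-on replicate 1 and to -0.05 without its 0 h array. The 4 genes of groups 1 to 3 were all negative, with a median of -0.29, and none of them was called.

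Hoxc10 shows the pattern. At 0 h its intensity was 7.20 and 5.17 in the TERT-on and 5.93 and 2.81 in the TERT-off mice, below the floor of 7.71 on all 4 arrays. At 6, 12 and 24 h it was 48.2, 64.9 and 6.69 in TERT-off replicate 1 and 38.8, 88.9 and 42.6 in TERT-off replicate 2. It was 7.55, 14.2 and 48.7 in TERT-on replicate 1 and 22.9, 11.3 and 27.8 in TERT-on replicate 2. The TERT-off mice were thus high at 6 h and the TERT-on mice were highest at 24 h, when TERT-off replicate 1 was back at the level of 0 h. The change was 1.80 ± 0.39 (adjusted p = 0.0383), with the values of 0 h raised to the floor. The level at 0 h is known only to lie below the floor, so the size of the change depends on it, and with a floor of 16 it was 0.975.

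Hoxa10 changed by 1.62 ± 0.34 (adjusted p = 0.0356), from 5.18, 7.96, 10.4 and 7.62 at 0 h. Hoxa7 changed by 1.15 ± 0.20 (adjusted p = 0.0195): it ran from 32.1 to 91.8 on the 4 arrays of 0 h and from 85.2 to 203 with a median of 122 on the 12 later ones, where 1 early array (TERT-on replicate 2) reached into the later range. Hoxb9, a gene of the thoracic ribs, changed by 0.90 ± 0.15 (adjusted p = 0.019), from between 18.2 and 25.9 at 0 h to between 26.1 and 54.6 later. Among the probe sets that stood for the 20 genes, that of Hoxb9 alone had all later arrays above those of 0 h; 0.35% of all genes had this upward and 0.707% downward. The second probe set of Hoxa9 had it too, and both passed the filter on low values only through the later arrays.

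Hoxa9 ran from 27.0 to 50.1 at 0 h and from 20.9 to 307 with a median of 184 on 11 later arrays, a change of 1.85 ± 0.53 that did not pass (adjusted p = 0.081). Its second probe set did pass in limma, at 1.23 ± 0.24 (adjusted p = 0.0271). That probe set ran from 10.9 to 27.6 at 0 h and passed the filter on low values only through the later arrays. The filter thus favoured a rise in it, and the call is a description. Hoxc9, which sets the thoracic motor column, ran from 13.7 to 32.3 at 0 h and from 22.6 to 62.6 later, at 0.97 ± 0.24 (adjusted p = 0.0567). Hoxd9 did not move in the same way, at 0.26 ± 0.24.

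Mouse by mouse, the change from 0 h was above 0 in all 4 mice for 6 of 20 Hox genes (Hoxa7, Hoxa9, Hoxa10, Hoxb9, Hoxc9 and Hoxc10) and below 0 in all 4 for another 6 (Hoxb2, Hoxb4, Hoxb6, Hoxc4, Hoxc6 and Hoxc8). Over all genes these shares were 7.86% and 12.4%. Of the 6 that rose, Hoxa10, Hoxb9, Hoxc9 and Hoxc10 passed the filter on low values only through the later arrays. The filter thus favoured a rise in them, and the count is a description. Both sets of 6 genes were the same in the 3 mice other than TERT-on replicate 1, whose change uses the array of low Gapdh ratio. For Hoxc10 the changes were 1.18 and 1.32 in the TERT-on and 1.91 and 2.78 in the TERT-off mice, and for Hoxc4 they were -0.71, -1.38, -0.78 and -0.30.

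These calls did not outlast the loss of any 1 of the 4 mice, or of only the TERT-on replicate 1 array of 0 h. Over all genes far fewer were called in these fits as well, except without TERT-off replicate 2. All 4 Hox genes stayed positive, by 0.79 or more. Leaving out only that array of 0 h moved Hoxa7 from 1.15 to 1.00 and Hoxa10 from 1.62 to 1.60. Hoxb9 went from 0.90 to 0.97, and Hoxc10 was at 1.80 with and without it. The uncalled Hoxa9 went from 1.85 to 1.63 and Hoxc9 from 0.97 to 0.79.

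**Figure D4:**
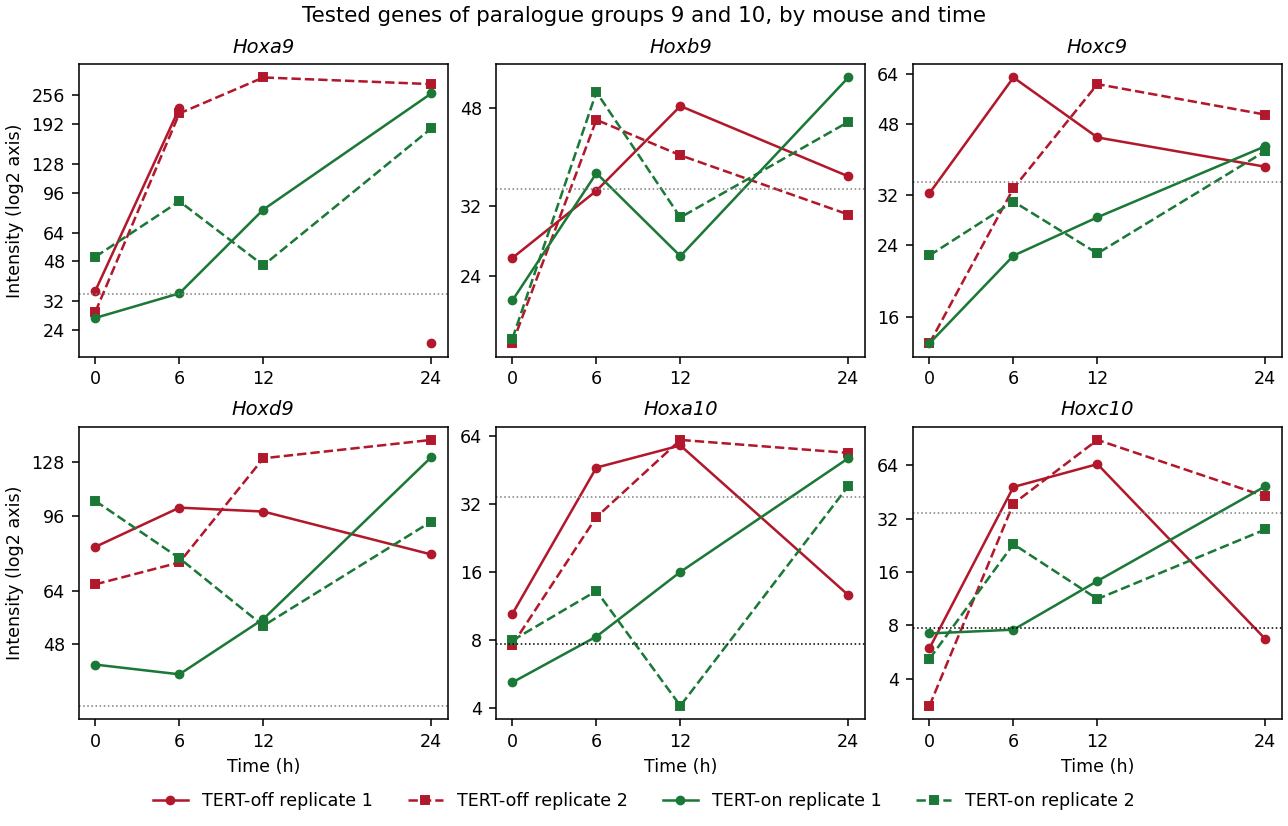
Intensity on a log2 axis against time in h for the 6 tested genes of groups 9 and 10, with 1 line per mouse (TERT-on green, TERT-off red); dotted lines mark the table median of 34.4 and the floor of 7.71, and the Hoxa9 line of TERT-off replicate 1 breaks at 12 h, where there is no value. Hoxa9, Hoxa10 and Hoxc10 share their course in each mouse, including the low array of TERT-off replicate 1 at 24 h.

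The genes of groups 9 and 10 shared part of their course across the arrays. The mean deviation of the 6 genes from their own means was -1.17, -0.72, -0.63 and -1.10 on the 4 arrays of 0 h. It was 1.03 and 0.61 in the TERT-on mice at 24 h, and 0.89 and 0.92 in TERT-off replicate 1 at 6 and 12 h before -0.61 at 24 h. In TERT-off replicate 2 it was 0.55, 1.27 and 0.96. As a description over 15 or 16 arrays, which share mice, the closest of the 12579 other genes to Hoxc10 were Hoxa9 (r = 0.964) and Hoxa10 (r = 0.949), which lie on another chromosome. Pairs among Hoxa9, Hoxa10, Hoxc9 and Hoxc10 had r from 0.771 to 0.964, and all 15 pairs of the 6 genes from 0.324 (Hoxb9 with Hoxd9) to 0.964. Hoxa7, which lies outside these groups, had r from 0.717 to 0.797 with Hoxa9, Hoxa10, Hoxb9, Hoxc9 and Hoxc10, and was the gene closest to Hoxb9. Without the array of low Gapdh ratio these ranges were 0.744 to 0.962, 0.214 to 0.962 and 0.687 to 0.772. Other pairs ranked lower among the 12579 other genes. Hoxa7 held place 41 for Hoxa9, 77 for Hoxc10, 170 for Hoxa10 and 180 for Hoxc9. For Hoxc9, Hoxa9 held place 150 and Hoxb9 place 824, so that many genes outside the Hox clusters were closer.

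The mean deviation of the 10 genes of groups 4 to 8 stayed between -0.43 and 0.41, and that of the 4 genes of groups 1 to 3 between -0.49 and 0.48. Hoxb2 to Hoxb6 had r from 0.462 to 0.963 with each other.

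**Figure D5:**
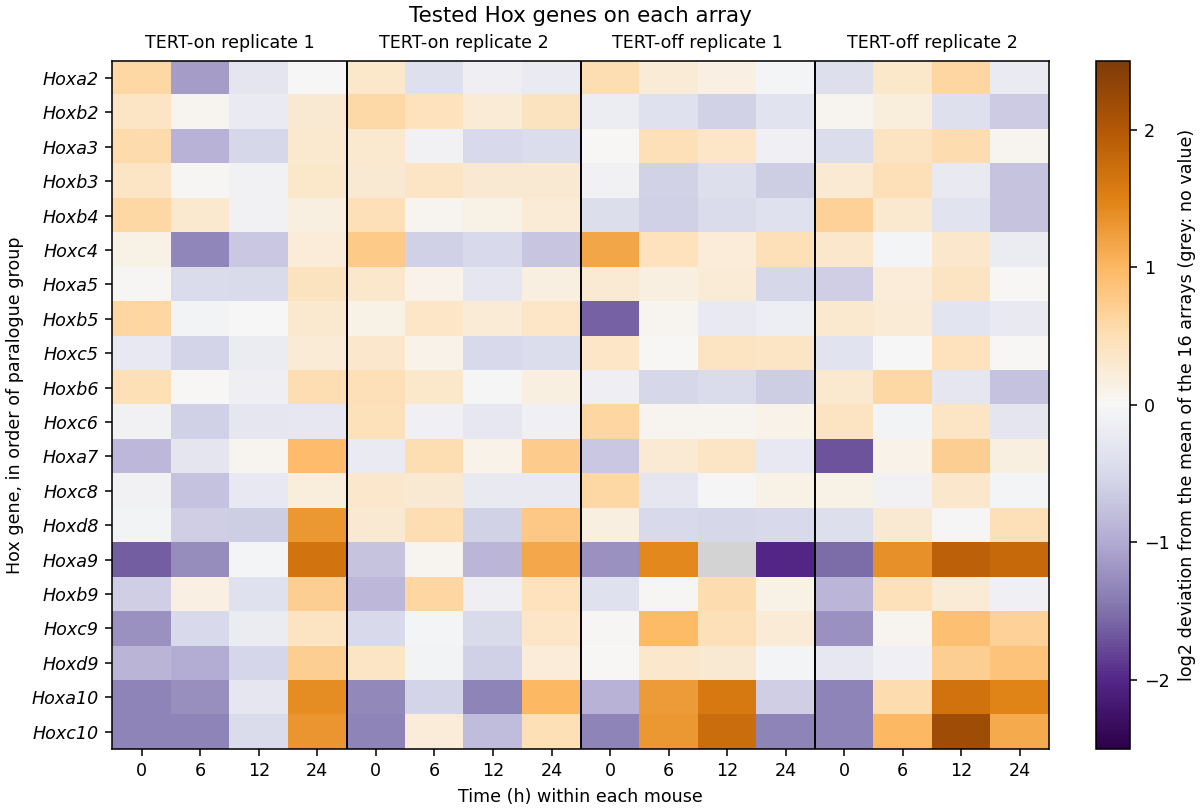
Colour gives the log2 deviation of each tested Hox gene from its mean over the 16 arrays, with genes in order of paralogue group (vertical axis) and arrays by mouse and time in h (horizontal axis). Hoxa9, Hoxa10 and Hoxc10 at the bottom are low (purple) at 0 h and high (orange) on some later array of every mouse. They are low on other later arrays, such as TERT-on replicate 1 at 6 h and TERT-off replicate 1 at 24 h. The Hoxb genes are paler.

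The promoters of Hoxa7, Hoxa9 and Hoxa10 are shown because these neighbours on chromosome 6 moved together from 0 h. The windows are the 250 bases before a RefSeq start on build GRCm38.p6, minus strand, at chr6:52218574-52218823 for Hoxa7, chr6:52227371-52227620 for Hoxa9 and chr6:52234940-52235189 for one of the Hoxa10 starts. Capitals mark matches, on either strand, to the TATA or CCAAT box letters named under the sequences.
Hoxa7: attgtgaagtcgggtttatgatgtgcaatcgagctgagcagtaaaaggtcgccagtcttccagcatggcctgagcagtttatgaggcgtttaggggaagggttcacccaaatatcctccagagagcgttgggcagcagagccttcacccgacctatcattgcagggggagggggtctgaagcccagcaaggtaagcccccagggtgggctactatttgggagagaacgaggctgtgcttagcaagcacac
Hoxa9: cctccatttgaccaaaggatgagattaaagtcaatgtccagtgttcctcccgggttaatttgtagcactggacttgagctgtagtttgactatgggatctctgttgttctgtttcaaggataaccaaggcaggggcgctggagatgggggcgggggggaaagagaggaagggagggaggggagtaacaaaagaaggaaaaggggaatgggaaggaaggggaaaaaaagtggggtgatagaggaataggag
Hoxa10: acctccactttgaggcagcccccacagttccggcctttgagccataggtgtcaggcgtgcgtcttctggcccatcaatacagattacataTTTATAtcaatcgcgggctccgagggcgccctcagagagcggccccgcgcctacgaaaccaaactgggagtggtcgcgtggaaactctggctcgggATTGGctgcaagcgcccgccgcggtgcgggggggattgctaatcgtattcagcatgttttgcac
The motifs searched on both strands were CACGTG (the E-box bound by Myc), CTTTGAT (bound by Lef and Tcf factors), TATAAA (the TATA box), CCAAT (the CCAAT box) and TGATNNAT (bound by Pbx with Hox). The Hoxa10 window shown held TATAAA, as its reverse complement starting 160 bases before the start, and CCAAT, likewise reversed, at 64 bases before it. No letters of the other motifs were found in the 3 windows, and Hoxa7 and Hoxa9 held none of the 5. The window of another Hoxa10 start, at chr6:52240855-52241104, also held none of the 5 and is not shown. In all 32851 promoter windows of the table CACGTG was present in 6.02%, CTTTGAT in 3.21%, TATAAA in 12.4%, CCAAT in 33.8% and TGATNNAT in 7.68%. Among the 21 windows that matched 19 of the 32 Hox genes these motifs were found in 4, 1, 2, 11 and 3; the windows with CACGTG were all of Hoxd genes.

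Among the partners of the Hox proteins, 2 of 7 tested TALE cofactors were called over 6 to 24 h, where 29.5% of all genes were. Both were higher in TERT-off skin: Meis2 (0.54 ± 0.15, adjusted p = 0.0227) and Pknox2 (0.86 ± 0.28, adjusted p = 0.0414). Meis2 differed before. At 0 h it was 262 and 290.0 in TERT-off against 98.8 and 79.4 in TERT-on skin, 1.64 ± 0.24 apart (adjusted p = 0.0551; 1.77 ± 0.30 and 0.224 without the array of low Gapdh ratio). On the later arrays it was 60.0 to 97.4 in TERT-off and 47.0 to 80.5 in TERT-on skin. It fell by 1.79 ± 0.19 from 0 h in TERT-off skin (adjusted p = 0.00206), the one cofactor called there.

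Of 23 chromatin regulators of the Hox clusters 2 were called higher, the Polycomb genes Cbx7 (0.72 ± 0.20) and Pcgf2 (0.50 ± 0.17), and 2 lower, Cbx2 (-0.74 ± 0.16) and Suz12 (-0.49 ± 0.15), also of Polycomb complexes. Of 6 tested upstream regulators Zbtb16, a zinc finger repressor, was called higher (1.57 ± 0.33) and Egr2 lower (-0.43 ± 0.13). Other positional transcription factors of skin had 5 of 12 called higher and none lower, with a median of 0.70: Emx2 (1.76 ± 0.25), Twist1 (1.16 ± 0.26), Prrx1 (1.05 ± 0.19) and Meox2 (0.79 ± 0.21) led them. Of the 33 tested genes that flank the clusters 3 were called higher and 5 lower, with a median of 0.04. Over all genes 16.9% were called higher and 12.6% lower, 29.5% in all. Neither the chromatin regulators nor the flanking genes passed that share. From 0 h over both cohorts, none of the tested genes of these lists was called except Meis2, which fell (also without the array of low Gapdh ratio, adjusted p = 0.0226).

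Markers of other cells moved with the cohorts. Of 12 dermal fibroblast markers 10 were called higher in TERT-off skin over 6 to 24 h (median 0.69), and their summed intensity was 23772 to 37202 in TERT-off and 15794 to 24275 in TERT-on skin, with 25108 to 27209 and 21444 to 27285 at 0 h. Hair shaft keratins had 10 of 11 called lower (median -4.84), with sums of 255 to 22800 against 6357 to 29875 and, at 0 h, 357 and 27627 in the TERT-off mice. Leukocyte markers had 7 of 8 called higher, with sums of 5274 to 15767 against 3424 to 5390.2. At 0 h these sums were 4648 and 6328 in TERT-off and 3596 and 4646 in TERT-on skin. Endothelial markers had 6 of 8 called higher. In bulk skin, more cells of a type and more RNA per cell cannot be told apart, and the part of these cells in the Hox differences was not tested. From 0 h over both cohorts no dermal fibroblast marker and no hair shaft keratin was called, while 3 of 8 leukocyte markers and 1 of 8 basal keratinocyte markers (Krt14) were called higher and 1 of 10 skeletal muscle markers (Actn3) lower. The skeletal muscle markers summed to 32296 and 36943 at 0 h and to 14304 to 28372 later in TERT-on skin, and to 22505 and 26091 and then 18731 to 34936 in TERT-off skin. The part of the biopsy site in the course of groups 9 and 10 was not tested.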

How the data were processed

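The members, lists and comparisons were chosen with earlier results of these data known. The deposited table gives linear intensity per probe set. In dChip the authors had brought the arrays to a common scale through an invariant set and fitted their PM/MM difference model. Of 45101 probe sets, 34958 had a single gene symbol, 932 had several and 9211 had none, and 1425 cells were empty. Symbols came from GEO's platform annotation and were updated through the mouse reference table (GRCm38.p6). Probe sets naming several Hox genes (3) or Hox antisense genes (5) were left out, as were 64 control probe sets. Array strand was not checked, so overlapping transcripts of a cluster may share a probe set.

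Intensities below the 20th percentile (7.71) were set to it (0.298% of the values analysed) before the log2 step. Kept were probe sets above the table median (34.4) on at least 2 arrays; 13 more with no value in a whole group were dropped, leaving 25563. One limma fit (version 3.58.1, R 4.3.3, statmod 1.5.0) had a mean for each of the 8 groups, the mouse entered by duplicateCorrelation (consensus correlation 0.0728) and an intensity trend. The number of arrays limits the precision: with 2 mice per cohort, p-values measure the spread between these mice and arrays. At this low correlation, shared by all probe sets, serial arrays of 1 mouse count nearly as independent. The p-values thus allow little for differences between mice that last over the times. Tests were two-sided. SAM, which the study used, was not run.

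Named with full values were, by a rule, the members called in a planned comparison and the 4 uncalled ones with the largest difference; Hoxa7 and Hoxb9 were named after their values were seen. Of each pathway list up to 4 called members were named. Of the marker lists, dermal papilla (1 of 11 higher, 1 lower), basal keratinocyte (2 of 8 higher), suprabasal epidermis (1 of 8 higher, 1 lower), inner root sheath (8 of 9 lower), hair matrix (7 of 10 lower), skeletal muscle (4 of 10 higher), adipocyte (3 of 6 higher) and nerve (1 of 4 higher) are not described further. Alternatives covered the floor, filter, scaling, mouse and replicate blocks, moderation, probe set choice and each mouse left out. Figures were drawn with matplotlib 3.10.9.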

Additional observations from a re-analysis of the deposited data

How the results depend on the processing

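Over 6 to 24 h, 5 Hox genes were called. Alternatives that kept all mice gave 4 to 6, except no filter (1, Hoxb2, among 32 genes). Over all genes the main fit called 2124 higher and 1589 lower, and the fit without a filter 1636 and 1165. The other alternatives called 1759 to 2585 higher and 1492 to 2121 lower. For the choice of any probe set of a gene, no count over all genes was taken. With a mouse left out the called genes changed. Their counts are not given, since such fits leave a lone array in some groups. At 12 h there were 2 calls, Hoxa10 and Hoxc10, with values under 16 raised to 16, and the same 2 with the replicate number as a block. The replicate block also gave 1 call at 24 h, Hoxb2. The change from 0 h in TERT-off skin had 1 call, Hoxa7, with values under 16 raised to 16, with arrays centred on their medians and with quantile normalization. For these fits at 12 h, at 24 h and from 0 h in TERT-off skin, no share of all genes was taken. Their counts are a description. The change from 0 h over both cohorts gave 4 calls, and 1 without a filter (Hoxb9). It gave 2 with the filter on 8 arrays and 2 with the mouse as a fixed term (Hoxa7 and Hoxb9 in both). Over all genes the main fit called 154 higher and 152 lower here, and the fit without a filter 44 and 58. The filter on 8 arrays gave 135 and 130 over all genes, and the mouse as a fixed term 108 and 98. The 4 calls were not kept without a mouse or without the TERT-on replicate 1 array of 0 h. Far fewer genes were then called over all genes too, except without TERT-off replicate 2. Over 6 to 24 h Hoxa3, Hoxa10, Hoxb2, Hoxb3, Hoxc4 and Hoxc10, and from 0 h over both cohorts Hoxa7, Hoxa9, Hoxa10, Hoxb9, Hoxc9 and Hoxc10, kept the sign of their first probe set in every fit run; Hoxb9 over 6 to 24 h and Hoxd9 from 0 h did not. The Hox code had 20 genes in place of 11 on all arrays with the 20th percentile as the threshold. The cause of these changes was not tested, but fits without a mouse hold fewer arrays and the fit without a filter adjusts over more genes.

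The replicate numbers did not pair the cohorts: the deviations of same-numbered arrays of the cohorts correlated at -0.0486, -0.123, 0.109 and 0.0847 at 0, 6, 12 and 24 h. Over 6 to 24 h the replicate block gave 6 calls, the 5 and Hoxb6, and over all genes 2585 higher and 2031 lower. In a fit without a mouse, the lone array of a group was assumed to vary like the others. The size of a change of genes under the floor, such as Hoxc10 at 0 h, depends on the floor.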
